A study of Homo sapiens with 12 samples.

Results

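The effect of adding QTP to radiation was read from 6 RNA-seq libraries of MSTO-211H, an established human mesothelioma cell line. The 3 Combo libraries received 10 µM QTP and, the next day, 4 Gy. The 3 IR libraries received vehicle and 4 Gy. These 6 are part of a series of 12, in which 3 Rx libraries received 10 µM QTP with sham exposure and 3 Con libraries received vehicle with sham exposure. The labels use the short names Rx and Combo without defining them, so their treatments were read from the 4 arms of the design. All 12 came from the same line, grown in suspension in medium with SM1, EGF, bFGF and heparin, with RNA taken 48 h after exposure. The submitters call the suspension cells mesothelioma-initiating, the labels name the compound only as QTP, and the series title speaks of dopamine receptor inhibition. Described here are all 10751 protein-coding genes, of 19951 in the deposited table, with a mean of at least 1 FPKM (sequenced fragments scaled to gene length and to library depth) over the 12 libraries. Just outside that limit lay TBX2 with a mean of 0.996 FPKM and L3MBTL4 with 0.998 FPKM, and just inside lay IQCH and LIN52, both with 1.00 FPKM. Whether libraries of 1 group stem from separate cultures is not stated, so the p-values speak of spread among libraries alone, and that spread may be technical.

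Ionizing radiation breaks DNA, and cells answer with p53-dependent transcription, arrest before mitosis and repair. Cells make cholesterol from acetyl-CoA through mevalonate and squalene, and they make fatty acids from the same precursor. Both routes are under SREBP transcription factors, which INSIG proteins hold in the endoplasmic reticulum while sterols are plentiful. The comparison of Combo with IR asks what QTP adds in cells that are irradiated in either case.

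The Combo libraries held 17441486 to 18630958 recovered reads, and the IR libraries held 14216186 to 15641746. IR 3 and Combo 3 stood at opposite ends of the first principal component of all 12 libraries (26.5% of variance), with scores of -21.5 for Combo 3 and 28.7 for IR 3. The same 2 libraries differed by gene length. When the protein-coding genes were ranked by length into 4 equal classes, the shortest class held genes of 207 to 3361 bases. In it, the median deviation from the mean of 12 libraries was -0.05, -0.07 and -0.13 on the log2 scale in Combo 1, 2 and 3, against -0.04, 0.05 and 0.18 in IR 1, 2 and 3. The median Combo-minus-IR change was -0.14 in that class and 0.08 in the longest class (7577 to 44677 bases). Without IR 3 and Combo 3 these medians were -0.06 and 0.03. Rx minus Con, which uses other libraries, had medians of 0.03 and -0.02 in the same classes. The part of gene length and of these 2 libraries in any result was not tested beyond these values and those given below. The plot of list medians shows every list with and without them. Of 16 mesothelial markers 6 passed the expression limit, and the FPKM of all 16 summed to 703 to 1046 in Combo libraries and to 1042 to 1433 in IR libraries, mostly from KRT8 and KRT18. The marker PDPN was at 0 in all 12 libraries. Of 18 markers of other cell types, LUM and PDGFRB passed, and the 18 summed to 6.08 to 10.0 FPKM in Combo libraries and to 6.48 to 7.30 FPKM in IR libraries.

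**Figure D1:**
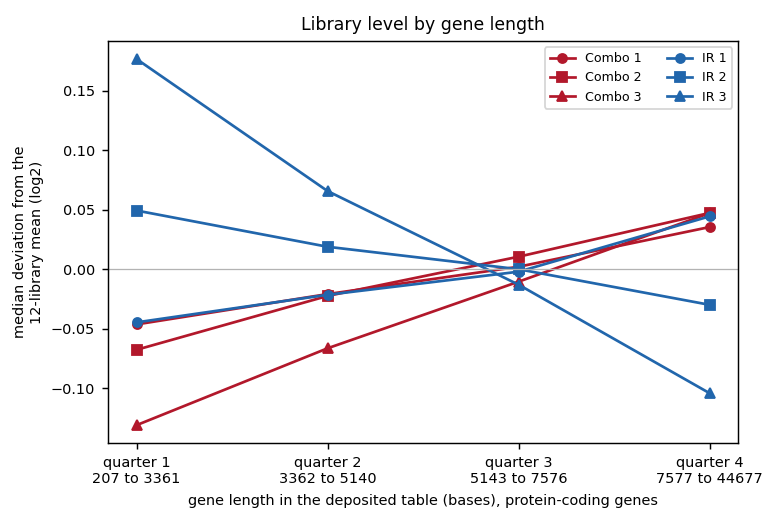
Median deviation from the 12-library mean of log2(FPKM + 1), over protein-coding genes in 4 equal classes of gene length, for each Combo and IR library. In the shortest class IR 3 is at 0.18 and Combo 3 at -0.13, and the order of these 2 is turned round in the longest class.

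Adding QTP to radiation was accompanied by higher mean levels of enzymes of cholesterol and fatty acid synthesis and of amino acid transporters. Mean levels of mitotic, ribosomal, respiratory chain and proteasome genes were lower. No single gene passed the adjusted threshold: limma on log2(FPKM + 1) called 0 of 13038 genes of all biotypes at an adjusted p under 0.05, and the lowest adjusted p was 0.145. At an unadjusted p under 0.05, 770 genes were higher and 1508 lower in Combo, together 17.5% of those tested. Voom on the recovered reads likewise called 0 genes at the adjusted threshold and gave 1030 higher and 1340 lower at the unadjusted one. The count depended on the IR 1 library. Without it, 262 genes were higher and 694 lower at the adjusted threshold, 956 in all, and 74 of the 79 cytosolic ribosomal protein genes were among those lower. Without both IR 3 and Combo 3, 0 genes passed the adjusted threshold and the unadjusted counts were 248 higher and 316 lower. That fit has fewer Combo and IR libraries, which by itself lowers such counts, here and in the lists below. The split also depended on scaling. Of the genes at an unadjusted p under 0.05, 33.8% were higher as deposited and 60.3% after rescaling to TPM (1105 higher, 728 lower), which moved the median of all genes from -0.01 to 0.07.

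Among the 10751 protein-coding genes, 571 (5.31%) were higher and 1331 (12.4%) lower in Combo at an unadjusted p under 0.05. In 895 (8.32%) all 3 Combo values lay above all 3 IR values, and in 1360 (12.6%) all lay below. These shares are the background for the gene lists that follow. The median change was -0.02, and 44.8% of genes had the higher mean in Combo. The changes had a 5th percentile of -0.32 and a 95th percentile of 0.27 on the log2 scale. Since RNA was taken from whole cultures, fewer cells of a kind and less RNA per cell cannot be told apart.

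**Figure D2:**
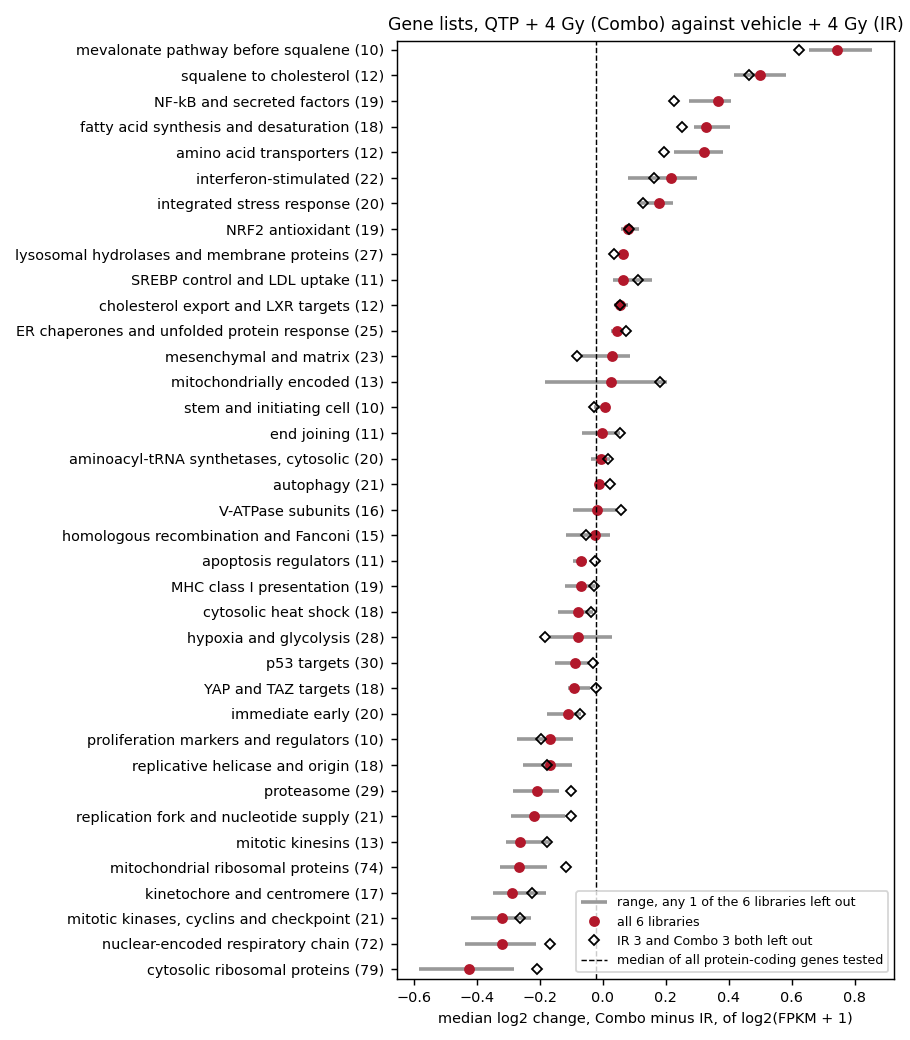
Median log2 change of log2(FPKM + 1), Combo minus IR, for 37 gene lists with the number of measured genes in brackets. Red points use all 6 libraries, grey bars span the values with any 1 library left out, open diamonds leave out IR 3 and Combo 3, and the dashed line is the median of all protein-coding genes tested. The pathways to squalene (0.74) and on to cholesterol (0.50) lie farthest right, and cytosolic ribosomal protein genes (-0.42) farthest left.

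Enzymes of cholesterol synthesis had the highest list medians. Of 10 genes from acetyl-CoA to squalene, 9 had higher means in Combo, 8 of them at an unadjusted p under 0.05, with a list median of 0.74. Of 12 genes from squalene to cholesterol, 11 had higher means, all 11 at an unadjusted p under 0.05, with a median of 0.50. In 20 of these 22 genes every Combo library exceeded every IR library. Without IR 3 and Combo 3 the medians were 0.62 and 0.46, and 7 genes of each list were higher at that threshold. After a length trend was taken out of each library they were 0.76 and 0.55. Of the 10 largest positive changes among protein-coding genes whose groups did not overlap, 7 were in the lists for sterol enzymes, fatty acid enzymes or their SREBP control.

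The promoters of 3 of these enzymes are shown because the CCAAT box, the letters bound by the factor NF-Y that works beside SREBP on sterol genes, can be read in them. Each is 220 bases from RefSeq, build GRCh38.p14, from 170 bases before the RefSeq start to 50 after it, 5′ to 3′ on the gene's strand. That start can differ from the start of the gene in the deposited coordinates, and the DHCR7 window lies wholly inside the deposited gene. HMGCS1 is chr5:43313363-43313582 on the minus strand, DHCR7 is chr11:71448344-71448563 on the minus strand and MSMO1 is chr4:165327499-165327718 on the plus strand. Capitals mark CCAAT or, on the other strand, ATTGG.
HMGCS1: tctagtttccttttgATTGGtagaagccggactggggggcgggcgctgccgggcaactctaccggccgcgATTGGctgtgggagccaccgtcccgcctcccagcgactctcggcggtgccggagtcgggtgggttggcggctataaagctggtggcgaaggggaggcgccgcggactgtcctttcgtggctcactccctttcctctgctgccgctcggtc
DHCR7: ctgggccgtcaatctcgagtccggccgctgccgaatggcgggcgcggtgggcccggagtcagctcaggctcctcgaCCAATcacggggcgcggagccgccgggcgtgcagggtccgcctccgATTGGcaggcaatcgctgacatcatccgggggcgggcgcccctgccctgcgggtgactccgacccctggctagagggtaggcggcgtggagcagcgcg
MSMO1: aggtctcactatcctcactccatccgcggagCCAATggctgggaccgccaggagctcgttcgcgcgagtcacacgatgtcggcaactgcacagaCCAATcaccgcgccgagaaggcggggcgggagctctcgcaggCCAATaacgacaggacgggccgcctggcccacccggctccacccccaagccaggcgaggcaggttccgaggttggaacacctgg
Promoter windows were at hand for 17 of the 22 sterol genes, and 12 of them (70.6%) held CCAAT on either strand between 250 bases before and 50 after the start. The same was true of 36.6% of 8631 tested protein-coding genes with a window. The share did not follow the list median from list to list. It was 82.6% for endoplasmic reticulum chaperones (median 0.04), 80% for replicative helicase genes (-0.17) and 27.3% for amino acid transporters (0.32). A match is a run of letters and no evidence of binding.

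HMGCS1 (chr5:43289395-43313512 in hg38, minus strand) makes HMG-CoA, the compound that is reduced to mevalonate. It had 31.8, 49.1 and 54.5 FPKM in Combo 1, 2 and 3, against 20.7, 20.0 and 15.7 FPKM in IR 1, 2 and 3. The log2 change was 1.19 ± 0.28 (SE; limma, unadjusted p 0.00135, adjusted p 0.165). Every Combo library lay above every IR library, and Combo 1 lay nearest to them. Farther along, FDPS, which makes farnesyl diphosphate, had 27.6, 32.1 and 37.1 FPKM in Combo, against 16.0, 18.3 and 18.6 FPKM in IR (log2 change 0.83 ± 0.19). MVD, the mevalonate diphosphate decarboxylase, had a change of 0.93 ± 0.26, and mevalonate kinase MVK one of 0.58 ± 0.14. The exception was PMVK, phosphomevalonate kinase, with 9.68, 11.0 and 8.66 FPKM in Combo, against 10.7, 13.2 and 14.5 FPKM in IR. It was lower by the unadjusted p (log2 change -0.35 ± 0.11), with overlapping groups, and was named after its value was seen.

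DHCR7 (chr11:71428193-71452868, minus strand), which carries out the last reduction to cholesterol, had 50.3, 57.9 and 72.4 FPKM in Combo, against 31.7, 26.4 and 24.1 FPKM in IR. The log2 change was 1.10 ± 0.20 (limma, unadjusted p 0.000200, adjusted p 0.145). The groups were well apart, with the lowest Combo library above the highest IR library by more than the range of the IR group. The methylsterol oxidase MSMO1 had 82.5, 105 and 118 FPKM in Combo, against 52.5, 57.5 and 54.4 FPKM in IR (log2 change 0.87 ± 0.22). SC5D, the lathosterol desaturase, had 7.51, 7.88 and 9.70 FPKM in Combo, against 5.48, 5.29 and 5.55 FPKM in IR (log2 change 0.53 ± 0.09). In these 3 genes all Combo libraries exceeded all IR libraries, and Combo 3 was highest.

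Of the 11 measured genes of SREBP control and LDL uptake, 10 had higher means in Combo and 5 of them had an unadjusted p under 0.05, yet the list median was 0.06. It was 0.11, with 2 genes at that threshold, without IR 3 and Combo 3. INSIG1 (chr7:155297776-155310235, plus strand), a sterol-responsive gene whose product retains SREBP, had 45.7, 84.2 and 84.3 FPKM in Combo, against 28.4, 33.6 and 23.3 FPKM in IR (log2 change 1.26 ± 0.39, adjusted p 0.180). STARD4, a cytosolic sterol carrier, had 14.2, 17.4 and 18.5 FPKM in Combo, against 11.2, 9.87 and 9.20 FPKM in IR (log2 change 0.67 ± 0.11). For SREBF2, the factor of the sterol branch itself, named after its value was seen, the Combo libraries had 43.2, 52.6 and 50.9 FPKM, against 39.1, 37.8 and 29.9 FPKM in IR. In all 3 genes every Combo library exceeded every IR library, and INSIG1 had the widest spread among Combo libraries. NPC1, which exports cholesterol from lysosomes, had 10.9, 12.8 and 16.5 FPKM in Combo, against 10.2, 6.80 and 6.21 FPKM in IR (log2 change 0.73 ± 0.21). Of the 12 cholesterol export and LXR target genes it was the single one with an unadjusted p under 0.05, and the list median was 0.05.

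Fatty acid synthesis and desaturation genes were also higher in mean. Of 18 genes, 16 had higher means in Combo, 11 with an unadjusted p under 0.05 and 11 with groups that did not overlap, and the median was 0.33 (0.25, with 4 genes at that threshold, without IR 3 and Combo 3). SCD (chr10:100347124-100364834, plus strand), the stearoyl-CoA desaturase that makes oleate, had the largest positive change of all: 203, 330 and 368 FPKM in Combo, against 140, 119 and 84.2 FPKM in IR. The log2 change was 1.37 ± 0.37 (limma, unadjusted p 0.00362, adjusted p 0.171), and it was 1.00 without IR 3 and Combo 3. SCD was highest in Combo 3 and lowest in IR 3. FADS1 and FADS2, the delta-5 and delta-6 desaturases of polyunsaturated fatty acids, had changes of 0.69 ± 0.11 and 0.90 ± 0.26. FADS1 read 16.6, 19.7 and 20.7 FPKM in Combo, against 11.9, 11.7 and 10.6 FPKM in IR. ACLY, which cleaves citrate to cytosolic acetyl-CoA, read 136, 143 and 170 FPKM in Combo, against 108, 91.0 and 85.4 FPKM in IR (log2 change 0.65 ± 0.12). In both genes the groups did not overlap. ACSL4, an acyl-CoA synthetase for polyunsaturated fatty acids, had a change of 0.30 ± 0.06. PCYT2, the regulated enzyme of phosphatidylethanolamine synthesis, is in no list and had 7.63, 9.65 and 9.49 FPKM in Combo, against 5.08, 4.73 and 3.70 FPKM in IR (log2 change 0.85 ± 0.16, adjusted p 0.145).

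**Figure D3:**
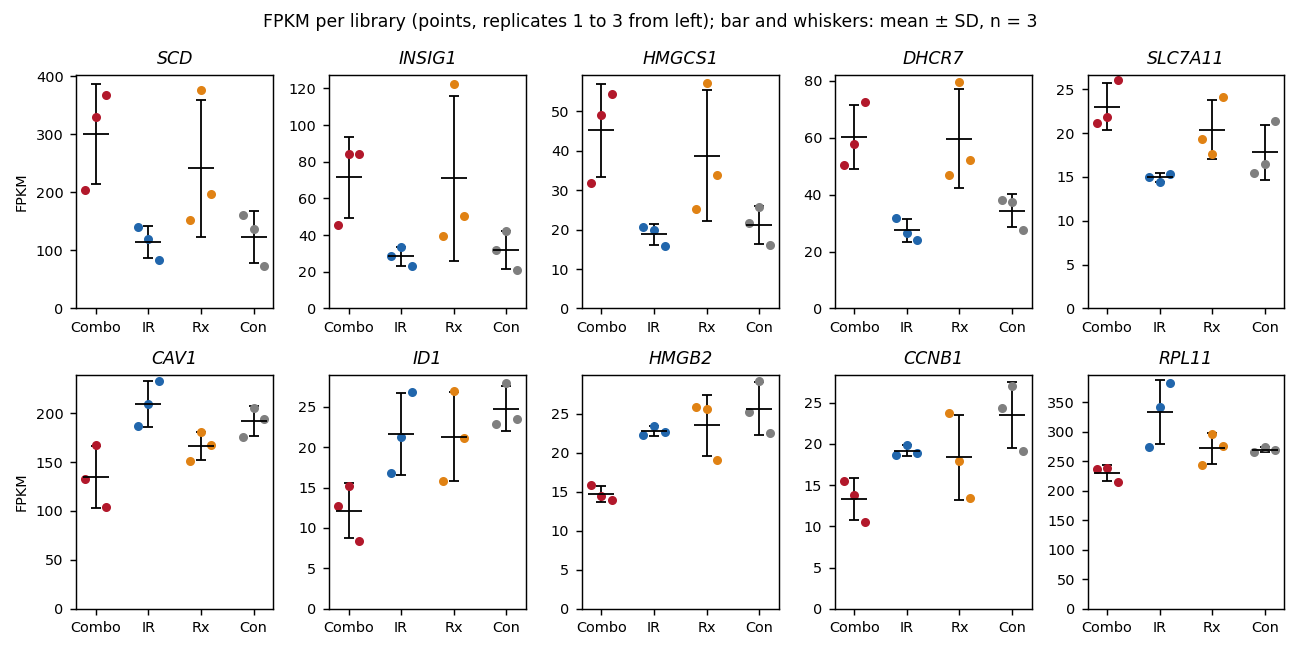
FPKM of 10 named genes in each library (points, replicates 1 to 3 from left), with mean and SD (n = 3 libraries a group), for Combo, IR, Rx and Con from left. The lipid genes SCD, INSIG1, HMGCS1 and DHCR7 and the transporter SLC7A11 are higher in every Combo than in every IR library, and CAV1, ID1, HMGB2, CCNB1 and RPL11 are lower in every Combo library.

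Amino acid transporters had higher means in 11 of 12 genes, 8 with an unadjusted p under 0.05, with a median of 0.32 (0.19, with 4 such genes, without IR 3 and Combo 3). SLC7A11, the cystine transporter that feeds glutathione synthesis, had 21.1, 21.9 and 26.1 FPKM in Combo, against 15.0, 14.4 and 15.4 FPKM in IR (log2 change 0.59 ± 0.13, adjusted p 0.165). SLC7A5, a carrier of large neutral amino acids, had a change of 0.34 ± 0.09, and the glycine transporter SLC6A9 one of 0.52 ± 0.14. Genes of the integrated stress response, the programme of the factor ATF4, had higher means in 17 of 20, but 4 of these had an unadjusted p under 0.05, and the median was 0.18 (0.13 without IR 3 and Combo 3). The asparagine synthetase ASNS had 2.23, 2.16 and 3.08 FPKM in Combo, against 1.44, 1.36 and 1.01 FPKM in IR (log2 change 0.61 ± 0.13). The stress-responsive pseudokinase TRIB3 had a change of 0.53 ± 0.15, and SESN2, a leucine-sensing inhibitor of mTORC1 that is also a p53 target, one of 0.44 ± 0.09. In each of these 6 genes the Combo libraries lay above the IR libraries.

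Secreted factors and other NF-kB targets had higher means in 16 of 19 genes with a median of 0.37, yet CXCL2 was the single one with an unadjusted p under 0.05. Leaving out IR 3 and Combo 3 gave a median of 0.23, with 0 genes at that threshold. This neutrophil chemokine had 7.13, 4.76 and 9.59 FPKM in Combo, against 3.64, 3.76 and 3.58 FPKM in IR (log2 change 0.76 ± 0.24). The libraries differed widely within the Combo group. Interferon-stimulated genes had higher means in 17 of 22, 1 of them at an unadjusted p under 0.05, and their median ranged from 0.08 to 0.30 as each of the 6 libraries was left out. NRF2 antioxidant genes had a median of 0.08, with 5 of 19 higher and 1 lower at the unadjusted threshold, or 1 higher and 0 lower without IR 3 and Combo 3. Among them the thioredoxin reductase TXNRD1 had 127, 115 and 144 FPKM in Combo, against 107, 100 and 89.2 FPKM in IR. Outside the lists, TSC22D3, known as a glucocorticoid-induced leucine zipper, had 10.4, 9.97 and 18.3 FPKM in Combo, against 7.82, 5.82 and 4.79 FPKM in IR. IGFN1 had 5.29, 4.89 and 11.0 FPKM in Combo, against 2.82, 3.57 and 1.90 FPKM in IR. For both, Combo 3 was far above the other libraries, and the log2 changes of 0.93 ± 0.30 and 1.04 ± 0.25 were 0.53 and 0.54 without IR 3 and Combo 3.

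Genes of mitosis had lower means in Combo. All 21 measured mitotic kinases, cyclins and checkpoint genes were lower in mean, 6 with an unadjusted p under 0.05 and 14 with all Combo libraries below all IR libraries, and the median was -0.32. All 13 mitotic kinesins were lower in mean with a median of -0.26, and 8 did not overlap, but 0 reached an unadjusted p under 0.05. Of 17 kinetochore and centromere genes, 15 were lower in mean and 7 had an unadjusted p under 0.05, with a median of -0.29. Without IR 3 and Combo 3 the 3 medians were -0.26, -0.18 and -0.22, and 1, 0 and 2 genes were lower at the unadjusted threshold. Several of these genes carry near their start the CCAAT box and the cell cycle genes homology region, the letters TTTGAA, which the DREAM complex is known to bind. The promoters of 3 of them show both arrangements, with CCAAT and TTTGAA in capitals. They are again 220 bases from RefSeq, build GRCh38.p14, on the gene's strand: CCNB1 at chr5:69166980-69167199 (plus), CCNB2 at chr15:59104976-59105195 (plus) and SPC25 at chr2:168890381-168890600 (minus). The SPC25 window lies wholly inside the deposited gene.
CCNB1: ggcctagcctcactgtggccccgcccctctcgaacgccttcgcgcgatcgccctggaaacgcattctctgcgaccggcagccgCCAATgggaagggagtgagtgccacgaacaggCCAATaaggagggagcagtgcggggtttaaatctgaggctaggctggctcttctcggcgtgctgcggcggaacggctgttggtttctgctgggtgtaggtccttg
CCNB2: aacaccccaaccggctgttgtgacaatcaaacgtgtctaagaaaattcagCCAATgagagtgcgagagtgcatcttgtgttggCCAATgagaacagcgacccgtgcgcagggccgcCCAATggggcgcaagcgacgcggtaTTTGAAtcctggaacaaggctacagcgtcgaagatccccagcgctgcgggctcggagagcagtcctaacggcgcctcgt
SPC25: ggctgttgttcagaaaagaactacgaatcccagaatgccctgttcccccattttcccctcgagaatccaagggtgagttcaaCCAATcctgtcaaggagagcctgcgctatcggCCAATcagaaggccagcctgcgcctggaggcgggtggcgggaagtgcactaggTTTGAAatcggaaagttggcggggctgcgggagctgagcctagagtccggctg
In the CCNB1 window TTTGAA was not found on either strand. On either strand it occurred in 9 of 13 kinesin windows (69.2%), in 8 of 15 windows of mitotic kinases, cyclins and checkpoint genes (53.3%) and in 10 of 15 of kinetochore genes (66.7%), against 9.23% of all 8631. CCAAT occurred in 10 of 13, 12 of 15 and 10 of 15 of the same windows. The share with TTTGAA did not follow the list median from list to list. It was 0 of 15 for replicative helicase genes (median -0.17) and 1 of 18 for replication fork genes (-0.22). For amino acid transporters (0.32) it was 3 of 11. The 2 motifs share no letters where they were marked.

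CCNB1, the mitotic cyclin B1, had 15.5, 13.8 and 10.5 FPKM in Combo, against 18.7, 19.9 and 18.9 FPKM in IR. Its log2 change was -0.51 ± 0.19 (limma, unadjusted p 0.0205, adjusted p 0.218). Its relative CCNB2, named for its promoter, had 4.69, 4.14 and 3.96 FPKM in Combo, against 5.28, 5.38 and 4.96 FPKM in IR, with an unadjusted p of 0.111. The IR libraries lay close together in both cyclins, and all Combo libraries lay below them. NEK2, a centrosomal kinase, had 1.29, 1.20 and 1.30 FPKM in Combo, against 2.06, 2.35 and 1.99 FPKM in IR (log2 change -0.47 ± 0.14). Securin, PTTG1, which holds separase until anaphase, had 6.02, 5.81 and 4.26 FPKM in Combo, against 7.49, 8.58 and 8.85 FPKM in IR (log2 change -0.56 ± 0.21). Of the kinetochore genes, CENPH had 7.93, 7.18 and 6.92 FPKM in Combo, against 10.2, 10.4 and 12.2 FPKM in IR (log2 change -0.52 ± 0.12). SPC24 and SPC25, both subunits of the NDC80 complex that binds microtubules, had changes of -0.46 ± 0.14 and -0.41 ± 0.14. SPC25 read 2.78, 1.97 and 1.65 FPKM in Combo, against 3.19, 3.03 and 3.11 FPKM in IR. None of these genes overlapped between groups.

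Of 10 other proliferation markers and regulators, 8 were lower in mean, 2 of them at an unadjusted p under 0.05, and 1 was higher at that threshold, with a median of -0.17. The median was -0.20 without IR 3 and Combo 3, with 1 gene lower and 0 higher. The higher one was E2F7, a repressor of the E2F family that was named after its value was seen. It had 7.94, 9.52 and 8.94 FPKM in Combo, against 7.17, 6.82 and 6.02 FPKM in IR, with no overlap (log2 change 0.35 ± 0.10). HMGB2, a chromatin protein abundant in cycling cells, had 15.8, 14.4 and 13.9 FPKM in Combo, against 22.2, 23.4 and 22.7 FPKM in IR. Its log2 change of -0.60 ± 0.12 (limma, unadjusted p 0.000365, adjusted p 0.149) was -0.56 without IR 3 and Combo 3. MKI67, the Ki-67 antigen, overlapped, with 7.65, 6.72 and 5.11 FPKM in Combo, against 8.67, 7.40 and 4.78 FPKM in IR (log2 change -0.07 ± 0.21, with its sign turned under TPM scaling). In both groups of MKI67 the third library was lowest. Of the 18 genes of the replicative helicase and origins 17 were lower in mean, with a median of -0.17, and 5 had an unadjusted p under 0.05 (median -0.18 and 0 genes without IR 3 and Combo 3). The GINS subunit GINS1 had 4.00, 4.51 and 3.68 FPKM in Combo, against 5.78, 6.48 and 5.88 FPKM in IR (log2 change -0.48 ± 0.16). Of 21 genes of the replication fork and nucleotide supply, 19 were lower in mean and 8 at the unadjusted threshold (median -0.22, or -0.10 and 2 genes without IR 3 and Combo 3). RPA3, the small subunit of the single-strand binding protein, had a change of -0.48 ± 0.12. Homologous recombination and Fanconi genes had a median of -0.02, like all genes, with 1 of 15 lower at the unadjusted threshold, and end joining genes had a median of -0.0035.

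The p53 targets were split. Of 30 genes, 19 were lower in mean, 10 with an unadjusted p under 0.05, and 2 were higher at that threshold, with a median of -0.09 that became 0.01 under TPM scaling. Without IR 3 and Combo 3 the median was -0.03, with 0 genes lower and 1 higher at that threshold. TP53I3, an oxidoreductase known as PIG3, had 4.11, 4.83 and 3.55 FPKM in Combo, against 6.43, 6.06 and 7.99 FPKM in IR (log2 change -0.60 ± 0.16, adjusted p 0.165). BTG2, an antiproliferative gene, had 17.0, 19.8 and 14.3 FPKM in Combo, against 21.0, 20.7 and 22.3 FPKM in IR (log2 change -0.32 ± 0.10), and SESN1 a change of -0.26 ± 0.10. In these 3 genes no Combo library reached an IR library, and without IR 3 and Combo 3 the changes were -0.41, -0.18 and -0.11. The most used readouts of p53 lay elsewhere. CDKN1A, the cyclin kinase inhibitor p21, had 195, 242 and 194 FPKM in Combo, against 182, 221 and 220 FPKM in IR, with a log2 change of 0.02 ± 0.11. MDM2, the ubiquitin ligase of p53, had 39.1, 35.3 and 37.2 FPKM in Combo, against 36.8, 34.5 and 39.9 FPKM in IR, with a change of 0.01 ± 0.15. Both genes overlapped between groups, and the sign of either turned as single libraries were left out.

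Ribosomal, mitochondrial and proteasome genes were lower in mean over nearly whole lists, and far fewer of them were lower at the unadjusted threshold without IR 3 and Combo 3. The smaller groups of that fit lower such counts by themselves, so the loss is not a measure of these libraries alone. Of 79 cytosolic ribosomal protein genes 78 were lower in mean and 75 had an unadjusted p under 0.05, against 12.4% of all protein-coding genes, yet the groups were apart in 31. The median was -0.42. It was -0.58 without IR 1, -0.28 without IR 3 and -0.21 without both IR 3 and Combo 3, where 3 genes were lower at the unadjusted threshold. RPL11, a large subunit protein that can also bind MDM2, had 237, 239 and 216 FPKM in Combo, against 275, 343 and 383 FPKM in IR (log2 change -0.52 ± 0.12). RPL24 had 131, 134 and 114 FPKM in Combo, against 145, 185 and 213 FPKM in IR, and RPL35 had a change of -0.48 ± 0.12. In both genes given in full, IR 1 lay nearest the Combo libraries and IR 3 farthest. Ribosomal protein genes share sequence with many processed copies, so their values are uncertain to the extent that reads were divided among them. The genes of this list have a median length of 3109 bases in the deposited table, and in the shortest class of protein-coding genes 26.0% were lower at the unadjusted threshold, against 2.60% in the longest. With the length trend taken out of each library, the list median was -0.34 and 73 genes were lower at that threshold. In the following lists the same step left fewer genes lower than the main fit. It did so over all 13038 tested genes too, with 1156 lower against 1508. Counts in the lists were 27 for mitochondrial ribosomal (median -0.17), 44 for respiratory chain (-0.25) and 14 for proteasome genes (-0.14). They were 5 for mitotic kinases, cyclins and checkpoint, 2 for kinetochore, 2 for replication fork, 3 for replicative helicase and 6 for p53 target genes.

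Of 74 mitochondrial ribosomal protein genes, 70 were lower in mean and 43 at the unadjusted threshold, with a median of -0.27, or -0.12 and 12 genes without IR 3 and Combo 3. MRPL36 had 24.8, 22.8 and 24.3 FPKM in Combo, against 29.7, 31.7 and 38.4 FPKM in IR (log2 change -0.45 ± 0.10). Of 72 nuclear-encoded respiratory chain genes, 71 were lower in mean and 52 at the unadjusted threshold, with a median of -0.32, or -0.17 and 7 genes without those 2 libraries. SDHA, the flavoprotein of complex II, had 21.7, 20.7 and 19.0 FPKM in Combo, against 25.7, 27.3 and 27.4 FPKM in IR (log2 change -0.38 ± 0.07, adjusted p 0.145). UQCRC2, a core subunit of complex III, had 25.2, 26.2 and 23.4 FPKM in Combo, against 28.7, 31.1 and 33.8 FPKM in IR (log2 change -0.31 ± 0.07). The groups did not overlap in either gene, and without IR 3 and Combo 3 their changes were -0.31 and -0.21. The 13 mitochondrially encoded genes did not share this, with a median of 0.03, 0 of them at the unadjusted threshold and 0 with groups apart. Their median was -0.18 without IR 1 and 0.18 without IR 3 and Combo 3. All 29 proteasome genes were lower in mean and 17 at the unadjusted threshold (median -0.21, or -0.10 and 1 gene without those libraries). The proteasome core subunit PSMB1 had 42.7, 41.0 and 38.7 FPKM in Combo, against 45.0, 49.2 and 57.2 FPKM in IR.

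**Figure D4:**
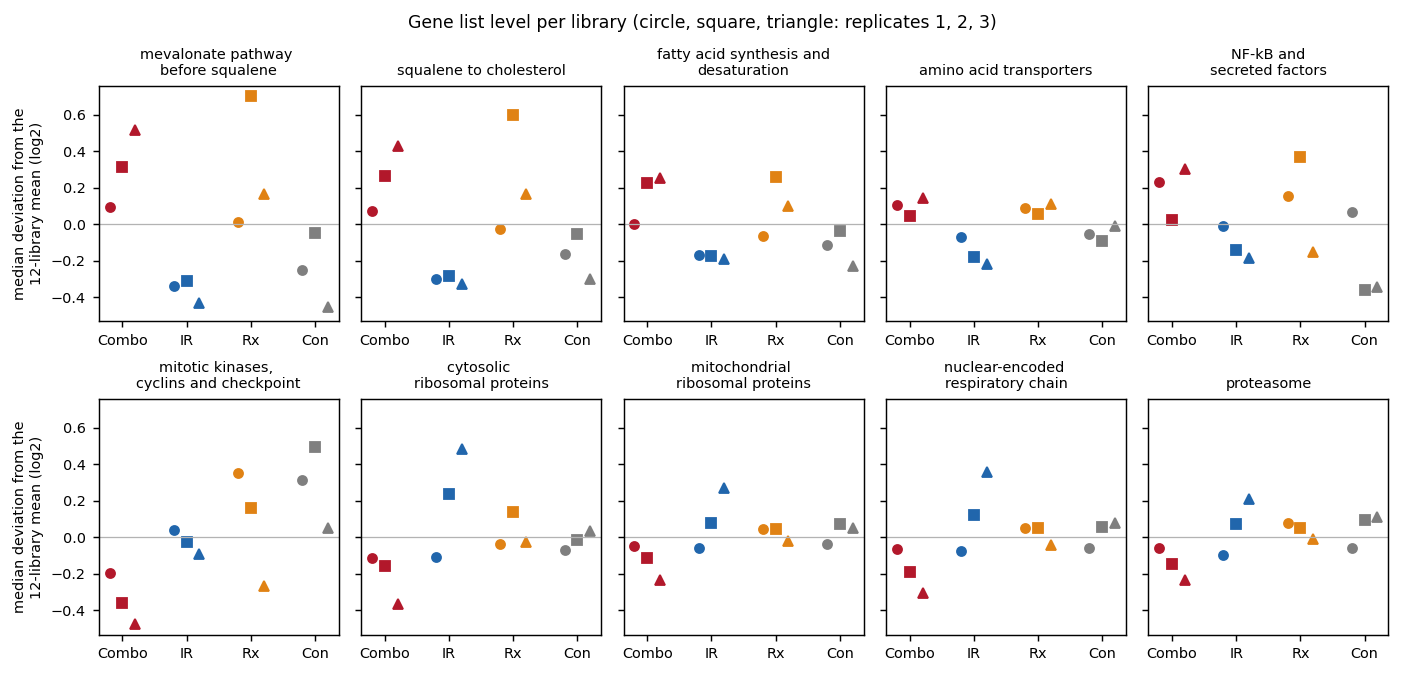
Level of 10 gene lists in each library, as the median over members of the deviation from the 12-library mean of log2(FPKM + 1). Groups run Combo, IR, Rx, Con, and circle, square and triangle are replicates 1, 2 and 3. All Combo libraries lie above all IR libraries in the lipid lists, and in the 4 ribosomal, respiratory and proteasome lists IR 3 is the highest library of all 12.

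The largest negative changes among genes with groups apart were in genes of unrelated roles, 0 of them in a list. SYCE3, a protein of the meiotic synaptonemal complex, had 3.59, 4.09 and 1.87 FPKM in Combo, against 6.40, 7.38 and 7.08 FPKM in IR (log2 change -0.97 ± 0.23, adjusted p 0.165). These values rest on only 17 to 54 recovered reads per library. ID1, an inhibitor of basic helix-loop-helix factors and a target of BMP signalling, had 12.7, 15.2 and 8.44 FPKM in Combo, against 16.8, 21.3 and 26.9 FPKM in IR (log2 change -0.80 ± 0.23). CAV1, the coat protein of caveolae, had 133, 167 and 104 FPKM in Combo, against 186, 209 and 233 FPKM in IR (log2 change -0.66 ± 0.15). In ID1 and CAV1 the extremes were Combo 3 and IR 3, and without them the changes were -0.42 and -0.40. PARL, a rhomboid protease of the mitochondrial inner membrane, had 2.68, 1.78 and 2.12 FPKM in Combo, against 3.32, 3.92 and 4.35 FPKM in IR (log2 change -0.61 ± 0.11, adjusted p 0.145). SNRPG, a core protein of spliceosomal particles, had 25.1, 16.2 and 15.5 FPKM in Combo, against 27.7, 27.0 and 33.6 FPKM in IR. The remaining 5, namely the homeobox gene SIX2, the theta globin gene HBQ1, TMEM121, PDGFRL and INKA1, had changes between -0.70 and -0.61. Reads per Combo or IR library were few for HBQ1 (28 to 56) and INKA1 (30 to 65). Smallest in unadjusted p of all protein-coding genes were IDH1 and GAMT, named after their values were seen. IDH1, the cytosolic isocitrate dehydrogenase that yields NADPH, had 25.6, 22.9 and 27.5 FPKM in Combo, against 17.6, 16.9 and 17.5 FPKM in IR (log2 change 0.52 ± 0.07, unadjusted p 1.96e-05, adjusted p 0.145). GAMT, which makes creatine, had 11.8, 12.4 and 11.6 FPKM in Combo, against 17.1, 17.3 and 16.9 FPKM in IR (log2 change -0.49 ± 0.07). The libraries within each group differed little in both genes.

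With all 6 libraries, the lists given next had medians between -0.11 and 0.07. Hypoxia and glycolysis genes had a median of -0.08 with 0 of 28 at the unadjusted threshold, and their level differed widely within groups. In 8 of them all Combo values lay below all IR values and in 0 above, against 12.6% and 8.32% of protein-coding genes. The median was -0.18 without IR 3 and Combo 3. YAP and TAZ targets had a median of -0.09, immediate early genes -0.11, cytosolic heat shock genes -0.08, MHC class I presentation genes -0.07 and apoptosis regulators -0.07. Autophagy genes had a median of -0.01, V-ATPase subunits -0.02, cytosolic aminoacyl-tRNA synthetases -0.01, endoplasmic reticulum chaperones 0.04, lysosomal genes 0.07, mesenchymal and matrix genes 0.03 and stem cell genes 0.01. Of 25 chaperone genes, 5 were higher and 2 lower at the unadjusted threshold, against 5.31% and 12.4% of protein-coding genes. Of 27 lysosomal genes, 8 lay apart and higher and 1 apart and lower, against 8.32% and 12.6%. Of the 37 lists, 14 changed the sign of their median under at least 1 alternative, all with a median no farther from 0 than -0.11. Of 25 receptors that antipsychotic drugs are known to bind, 5 passed the expression limit and 8 were at 0 in all 12 libraries. The dopamine receptor gene DRD4 had 3.35, 4.55 and 3.61 FPKM in Combo, against 3.42, 4.22 and 5.67 FPKM in IR, and the groups overlapped (log2 change -0.16 ± 0.18). The keratins KRT8 and KRT18, neighbours on chromosome 12 with processed copies elsewhere that can take up their reads, had changes of -0.49 ± 0.16 and -0.56 ± 0.18, and these became -0.27 and -0.26 without IR 3 and Combo 3.

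QTP in sham cells, Rx against Con, is measured in 6 other libraries and shows how far the same genes differed without radiation. In that comparison limma called 0 genes at the adjusted threshold and 425 at the unadjusted one (3.26%). Same-numbered Rx and Con libraries deviated together, and once that number was added as a blocking term limma gave 0 and 565 genes in the fit of 12 libraries, and 0 and 765 in a fit of the 6 Rx and Con libraries (460 there without the block). Of the 571 protein-coding genes higher in Combo than in IR at the unadjusted threshold, 426 (74.6%) were also higher in Rx than in Con in mean, where 2.42% of all were higher and 0.558% lower at that threshold and 4.86% and 2.72% lay apart. Of the 1331 lower ones, 707 (53.1%) were also lower there, while 51.5% of all 10751 genes had the same sign in both. Across genes, which are not independent, Pearson's r between the changes was 0.23. The sterol genes differed in both arms. Of the 22, 20 had higher means in Rx, 17 at an unadjusted p under 0.05, and the medians of their changes were 0.60 for Combo minus IR and 0.47 for Rx minus Con. HMGCS1 had 25.2, 57.2 and 33.8 FPKM in Rx, against 21.6, 25.6 and 16.2 FPKM in Con, with Rx 2 far above the rest. DHCR7 had 47.0, 79.4 and 52.3 FPKM in Rx, against 38.1, 37.5 and 27.5 FPKM in Con. Mitotic kinases, cyclins and checkpoint genes were lower in mean in Rx in 21 of 21 with a median of -0.21, but 0 reached an unadjusted p under 0.05 (6 with the replicate block) and the list's level overlapped between Rx and Con. For Combo against IR, 6 of these genes were lower at that threshold without the block and 14 with it. The replicate number was not taken as pairing Combo with IR. Over all 13038 tested genes 1508 were lower without the block and 1635 with it, and for Rx against Con 117 and 188.

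Cytosolic ribosomal protein genes had a median of 0.04 for Rx minus Con, with 67 of 79 higher in mean in Rx. RPL11 had 244, 296 and 277 FPKM in Rx, against 265, 274 and 269 FPKM in Con. The difference between the 2 QTP effects was tested as an interaction term in limma. It called 0 of 13038 genes (lowest adjusted p 0.609) and 995 (7.63%) at an unadjusted p under 0.05. Of the cytosolic ribosomal protein genes 50 of 79 had an unadjusted interaction p under 0.05, as did 18 of 74 mitochondrial ribosomal and 23 of 72 respiratory chain genes, and 0 of the 22 sterol genes. Without IR 3 and Combo 3, in a fit with fewer libraries, the lowest adjusted interaction p was 0.999.

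**Figure D5:**
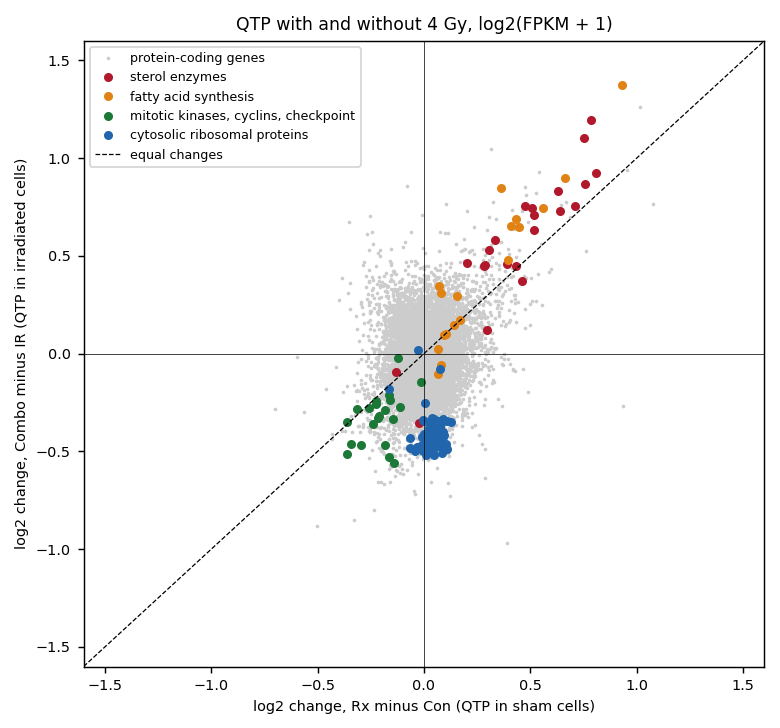
Log2 change of log2(FPKM + 1) for Combo minus IR (vertical) against Rx minus Con (horizontal), each point a protein-coding gene, with 4 groups of genes in colour and a dashed line of equal changes. Sterol and fatty acid genes extend up and right in both arms, mitotic genes lie below and left of 0, and cytosolic ribosomal protein genes lie near 0 in Rx minus Con and near -0.42 in Combo minus IR.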

How the data were processed

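The authors deposited 1 table of FPKM for 58735 genes in 12 RNA-seq libraries, with gene lengths and coordinates. Per the labels' protocols, Trizol and RNeasy columns gave the RNA, and NEBNext Ultra libraries were run on a NovaSeq6000. Coordinates are in hg38, the build named in the submitters' processing notes. The aligner, the counter, its strand setting and the scaling to library size were not given in the sources used here. After multiplication by gene length, 100% of non-zero FPKM were whole multiples of a library's unit to within 0.01 of a read. Whole reads could thus be recovered, 13188257 to 18630958 per library. The depth limits low genes most, and 429 tested genes are under 200 bases.

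Tests covered the 13038 genes of any biotype whose FPKM averaged 1 or more across the series, taken as log2(FPKM + 1), which understates the changes of low genes, and log2 changes are on that scale. The 4 group means of all 12 libraries went into 1 fit (limma 3.58.1, R 4.3.3). Its tests were two-sided, allowed for a trend of variance with level, and were adjusted by Benjamini-Hochberg over all tested genes (threshold 0.05). An unadjusted p under 0.05 and groups whose 3 values did not overlap were counted as descriptions. No replicate repeated another by a chi-square test of reads. Alternatives were another pseudocount (0.1), other filters and scalings, other fits, voom on the recovered reads, a replicate block and libraries left out. Deviations from group means of same-numbered libraries correlated at -0.02, 0.18 and -0.21 between Combo and IR (replicates 1, 2 and 3), so the numbers were not taken as pairing these. Between Rx and Con they correlated at 0.19, 0.19 and 0.28, so there they were, from the data alone, since the labels do not say what a number marks. That choice is uncertain. Same-numbered IR and Con libraries correlated at 0.35, 0.18 and 0.16, and the differently numbered Combo 3 and IR 1 at 0.26. Differently numbered Rx and Con libraries were not compared. The fit was tested on simulated data. Those data held no shift by library or by gene length, so that test does not cover the shifts seen here.

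The 40 gene lists and the genes compared were chosen with earlier results of these data known, and lists get no test. Genes were named by a rule: the 10 largest changes each way among protein-coding genes with an unadjusted p under 0.05 and groups apart, up to 3 members of each list with the smallest p in the direction of its median, and a fixed set. Some genes this rule takes are not reported here. Genes are those of the first identifier with a symbol. Promoters came from RefSeq (GRCh38.p14), matched by symbol, with motifs searched on both strands.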

Additional observations from a re-analysis of the deposited data

How the results depend on the processing

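There were 28 alternatives, and counts and list medians were recomputed under those that covered Combo and IR. Of 234 counts, 199 stayed within 1.5 times the reported count. Of 962 list medians, 900 moved by less than 1 SD of the list's level between libraries of a group, a wide tolerance that 41 medians with a turned sign also met (61 signs turned in all, in 14 of 37 lists). The values beyond these limits are given next, and the cause was not tested. Where Combo or IR libraries are left out, the smaller groups lie apart more often by that alone. Counts without overlap are then not comparable with those of 3 libraries a group. With IR 3 and Combo 3 both left out, 248 genes were higher and 316 lower at an unadjusted p under 0.05, 1684 protein-coding genes were higher without overlap, 394 genes had the same sign in Rx against Con, and list medians were 0.055 for end joining, -0.025 for apoptosis regulators, 0.057 for V-ATPase subunits, 0.022 for autophagy, 0.19 for amino acid transporters, 0.075 for endoplasmic reticulum chaperones, -0.10 for the proteasome, -0.12 for mitochondrial ribosomal, -0.21 for cytosolic ribosomal and -0.17 for respiratory chain genes. Rescaling to TPM gave 728 lower genes at the unadjusted threshold and 871 lower without overlap, and medians of 0.076 for end joining, 0.012 for p53 targets, -0.016 for apoptosis regulators, 0.16 for SREBP control, 0.16 for cholesterol export, 0.17 for lysosomal genes, 0.080 for V-ATPase, 0.090 for autophagy, 0.28 for the integrated stress response, 0.40 for amino acid transporters, 0.097 for aminoacyl-tRNA synthetases, 0.15 for endoplasmic reticulum chaperones, 0.16 for NRF2, 0.035 for MHC class I, 0.0079 for YAP and TAZ targets and 0.11 for stem cell genes. Quantile normalization gave medians of -0.019 for p53 targets, 0.15 for lysosomal genes, 0.013 for autophagy, 0.11 for aminoacyl-tRNA synthetases, 0.10 for endoplasmic reticulum chaperones, 0.041 for heat shock, 0.13 for NRF2, -0.015 for immediate early, 0.097 for MHC class I, -0.17 for cytosolic ribosomal, 0.026 for YAP and TAZ targets and 0.065 for stem cell genes. Library quality weights gave 4496 genes at the adjusted threshold, 2653 higher and 3346 lower at the unadjusted one and 3616 with the same sign in Rx against Con, where 687 were at the unadjusted threshold, but the weighting did not converge and gave IR 2 a weight of 17.4 against 0.295 to 1.62 elsewhere. Its medians were -0.040 for apoptosis regulators, 0.15 for SREBP control, 0.016 for autophagy, 0.29 for the integrated stress response, -0.19 for heat shock, 0.080 for immediate early and 0.0023 for YAP and TAZ targets. With no filter on low values, 6 genes (all short RNAs or pseudogenes) passed the adjusted threshold, 1549 were higher at the unadjusted one and 6 passed for the interaction; in Rx against Con 1 gene (MIR4256, named after its value was seen) passed and 1332 were at the unadjusted threshold. A mean of at least 5 FPKM gave 407 higher genes at the unadjusted threshold, 233 in Rx against Con, 525 higher without overlap and medians of -0.11 for apoptosis regulators and 0.37 for SREBP control, where fewer genes are tested. A pseudocount of 0.1 and voom gave apoptosis regulators medians of -0.12 and -0.10. Taking a length trend out of each library, an alternative chosen after seeing the data, gave 0.14 for SREBP control, 0.16 for NRF2 and -0.0036 for MHC class I.

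With each library left out in turn, genes past the adjusted threshold numbered 0 to 956, those at the unadjusted threshold 407 to 1513 higher and 678 to 2217 lower, and those without overlap 895 to 2347 higher and 1360 to 3110 lower. Smaller groups lie apart more often by that alone, so the higher counts without overlap do not show a wider separation. The interaction called 0 to 3 genes. Without IR 1 these were AL590867.2, RNA5SP317 and AL606763.1, and without Rx 3 the gene was MIR3936, all noncoding and named after their values were seen. Genes with the same sign in Rx against Con numbered 673 to 1738. Medians ranged from -0.067 to 0.055 for end joining, -0.15 to -0.044 for p53 targets, 0.031 to 0.16 for SREBP control, -0.095 to 0.042 for V-ATPase and 0.23 to 0.38 for amino acid transporters. Of 69 named genes, 35 passed the adjusted threshold without IR 1 and 64 under the quality weights. In 4 named genes whose groups overlapped the sign turned: MKI67 ranged from -0.28 to 0.090 as single libraries were left out (0.090 without IR 1, 0.072 without Combo 3) and was 0.019 under TPM. CDKN1A ranged from -0.086 (without Combo 2) to 0.072, with -0.073 without IR 1 and -0.063 under quality weights. MDM2 ranged from -0.043 (without IR 2) to 0.060, with -0.028 without Combo 1 and -0.10 with the length trend removed. DRD4 ranged from -0.29 to 0.0025 (without IR 3) and was 0.033 without IR 3 and Combo 3. With the replicate number as a block, 0 genes passed the adjusted threshold and 903 were higher and 1635 lower at the unadjusted one. For Rx against Con, where the numbers were taken as pairing the libraries from the data alone, the block gave 0 genes at the adjusted threshold. At the unadjusted one it gave 565, against 425 without it. In the 6 Rx and Con libraries alone, an alternative chosen after seeing the data, these were 765 with the block and 460 without. The block changed no call at the adjusted threshold.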
